A study of Mus musculus with 6 samples.

Results

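In whole embryonic hearts, 10 genes grouped as matrix genes of fibroblasts and valve mesenchyme were examined: Postn, Lum, Ogn, Dcn, Pdgfra, Fbln1, Fbln2, Fn1, Eln and Lox. Pdgfra encodes a receptor and not a matrix protein, but is counted among the 10 matrix genes here. The 10 genes were found by gene symbol in tables of 23284 genes, and all 10 were listed in every library. Poly(A) RNA had been sequenced from whole hearts of C57BL/6 mouse embryos at stage E13.5. Tfam KO embryos (Tfam fl/fl; Nkx2.5 IRES-Cre/+) had a pair of floxed Tfam alleles, and Control embryos (Tfam fl/+; Nkx2.5 IRES-Cre/+) had a single floxed allele. The controls thus carried the same Cre recombinase, expressed from the Nkx2.5 locus, as the KO embryos. That locus is active in the cardiac progenitor lineage, and cells outside this lineage keep their Tfam. There were 3 libraries per genotype, each from a pool of 5 hearts. Tfam encodes mitochondrial transcription factor A, which packages mitochondrial DNA and is needed for its transcription.

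The fibrous part of the heart is built by cells of several origins. The epicardium, the cell layer on the heart surface, sheds cells that become cardiac fibroblasts, while the endocardium of the outflow tract and atrioventricular canal gives rise to the mesenchyme of the valve cushions. These cells secrete proteoglycans, fibronectin, periostin and fibulins. The outflow vessels and valves also lay down elastic fibres, in which elastin is deposited on microfibrils and crosslinked by lysyl oxidases. A bulk library holds the RNA of all these cells together, so fewer cells of a type and less RNA per cell cannot be told apart.

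The libraries held between 12370092 and 18078620 reads, as totals inferred from the deposited values. FPKM, the deposited unit, scales reads by transcript length and library total. Over the 10807 genes averaging at least 1 FPKM the deposited median log2 fold change was 0.28. Size factors from the median-of-ratios method (0.828 to 1.33) brought this median to 0.01 when each library was divided by its own, and values so divided are called rescaled here. These factors were 1.17, 0.923 and 1.33 in Tfam KO replicates 1, 2 and 3, against 0.828, 0.869 and 1.01 in Control replicates 1, 2 and 3. Rn45s, the ribosomal RNA precursor, took 25.4%, 31.2% and 14.95% of the reads in KO replicates 1, 2 and 3, against 32.5%, 31.6% and 27.8% in Control replicates 1, 2 and 3. The words rose and fell are kept for genes with a limma adjusted p under 0.05 both as deposited and rescaled. The targeted gene, Tfam, stood at 3.97, 4.77 and 6.22 FPKM in the KO libraries, against 4.64, 5.55 and 6.62 FPKM in the controls (limma log2 fold change -0.15, adjusted p = 0.651). Rescaled, it was at 3.39, 5.17 and 4.68 FPKM in KO hearts, against 5.599, 6.39 and 6.55 FPKM in controls, with every KO library below every control (log2 fold change -0.42, adjusted p = 0.152). Its value includes exons that the floxed sites may not span.

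All 10 matrix genes passed the filter on low values, and none rose or fell in Tfam KO hearts by the rule of both scales. On the deposited values limma called 4 of the 10 higher (Postn, Lum, Ogn and Pdgfra), against a background of 6.21% of all tested genes, and 0 lower, against 1.16%. On the rescaled values it called 0 higher (background 2.07%) and 0 lower (background 2.5%), while before adjustment the same 4 genes passed p under 0.05 as higher (8.87% of all tested genes did) and 0 as lower (10.4%). Limma-voom on recovered reads called 0 higher (background 2.72%) and 0 lower (background 4.08%), again with 4 higher and 0 lower before adjustment, where 9.19% and 11.4% of all tested genes passed. The median log2 fold change of the 10 genes was 0.53 on the deposited values and 0.21 on the rescaled values, beside 0.28 and 0.01 for all tested genes. Tfam KO replicate 3, which had the smallest share of Rn45s reads, held the highest rescaled value of 6 of the 10 genes. How many of all tested genes were highest in this library was not computed, and it was the lowest library in 23.0% of them. The part of the Rn45s share in the results was not tested.

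**Figure D1:**
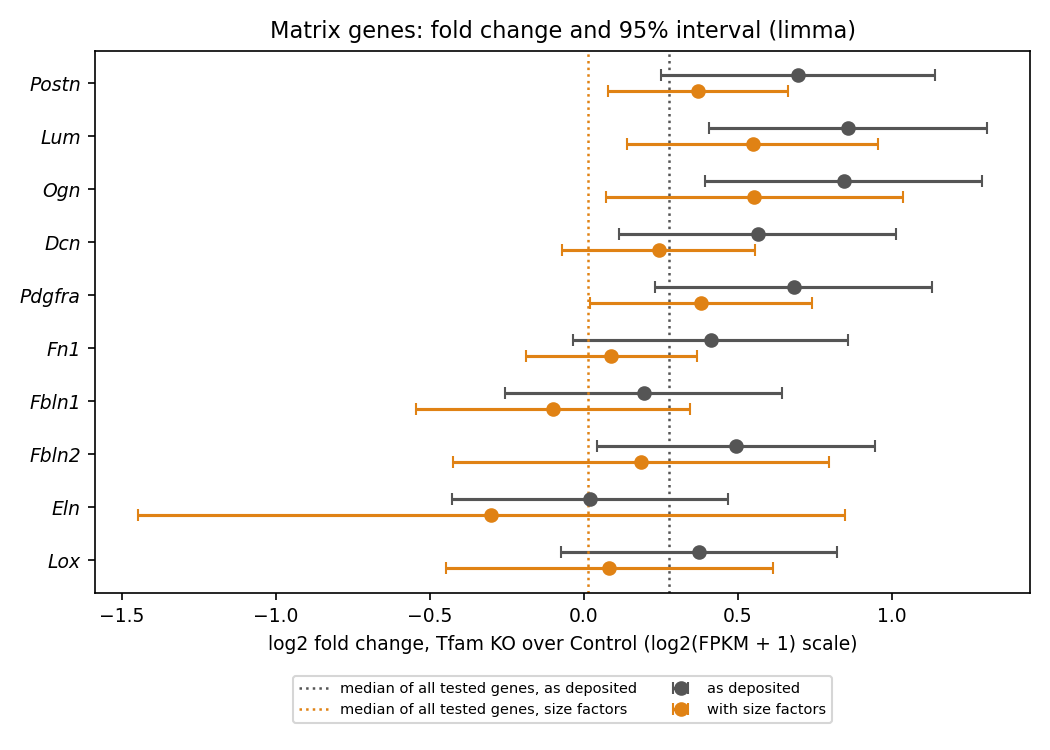
Log2 fold change of each matrix gene, Tfam KO over Control, on the log2(FPKM + 1) scale, as deposited (grey) and rescaled by size factors (orange). Bars are 95% intervals from limma (n = 3 libraries a group) and dotted lines are the medians of all tested genes, 0.28 and 0.01. Lum and Ogn have the highest values on both scales, and Eln has the widest rescaled interval, from -1.45 to 0.85.

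One library stood apart in these genes. On the rescaled values Control replicate 2 was the lowest of the 6 libraries in 8 of the 10 genes, and it was the lowest in 14% of all tested genes. The exceptions were Ogn, lowest in Control replicate 1, and Dcn, lowest in Control replicate 3. Among related lists described below, Control replicate 2 was also the lowest in 4 of 5 small leucine-rich proteoglycan genes and 8 of 15 valve and cushion matrix genes. It was the lowest in 2 of 10 matrix proteases and inhibitors, 0 of 10 endothelial markers and 0 of 11 cardiomyocyte markers. The rescaled sum of the 10 genes was 329.9, 365 and 356 FPKM in Tfam KO replicates 1, 2 and 3, against 374, 232 and 381 FPKM in Control replicates 1, 2 and 3. Of the 10 genes the deposited values gave 0 higher without Control replicate 2, against 2.63% of all tested genes, and 0 without Tfam KO replicate 3, against 3.06%. They gave 1 without Control replicate 1 (2.17%), 2 without Tfam KO replicate 1 (2.79%), 2 without Control replicate 3 (3.66%) and 6 without Tfam KO replicate 2 (21%).

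**Figure D2:**
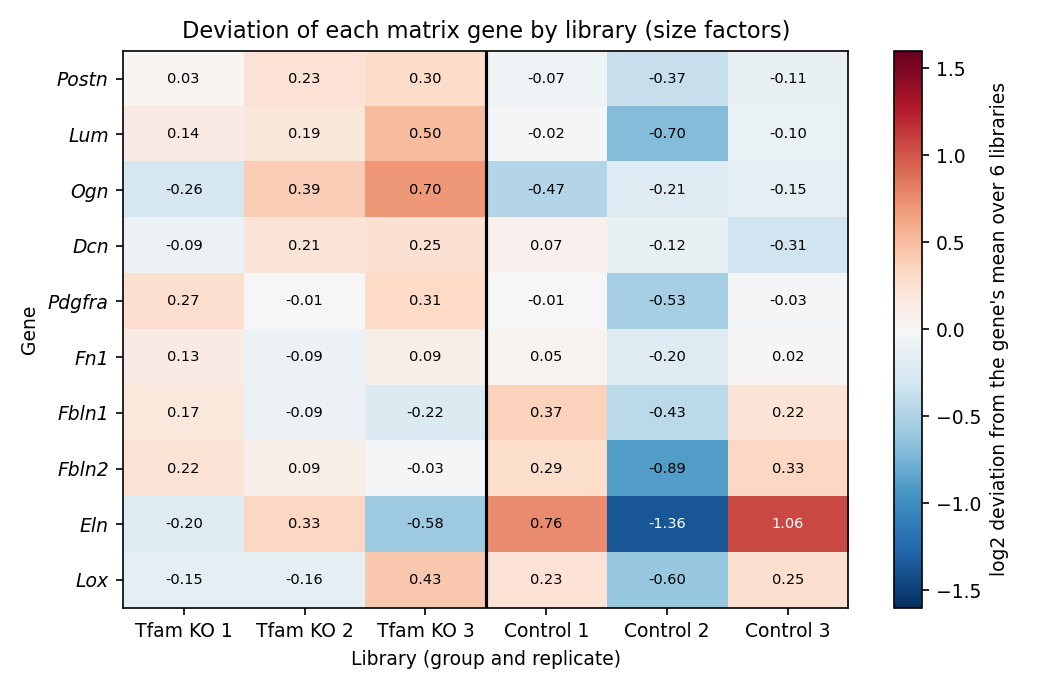
Deviation of each matrix gene (rows) from its own mean over the 6 libraries (columns), on the log2 scale of rescaled values. Red is above the mean and blue below it. The column of Control replicate 2 is below the mean in every row, most so for Eln, which lies 1.36 below it, while Eln lies 0.76 above in Control replicate 1 and 1.06 above in Control replicate 3.

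Postn encodes periostin, a secreted matricellular protein of valve mesenchyme and fibroblasts that binds collagen and fibronectin. In the deposited values it was at 97.0, 88.0 and 133 FPKM in the KO libraries, against 63.9, 54.3 and 75.7 FPKM in the controls. All 3 KO libraries lay above all 3 controls, and this was also true of the rescaled values, 82.8, 95.4 and 99.8 FPKM in KO hearts against 77.2, 62.5 and 74.9 FPKM in controls. Its rescaled level averaged 92.6 ± 8.82 FPKM in KO hearts and 71.5 ± 7.91 FPKM in controls (SD, n = 3 each), a ratio of 1.30. By limma the deposited log2 fold change was 0.69 (SE 0.23, adjusted p = 0.0362) and the rescaled one 0.37 (SE 0.13, 95% interval 0.08 to 0.66, adjusted p = 0.154). Without Control replicate 2 these were 0.58 (adjusted p = 0.276) and 0.28 (adjusted p = 0.322), and of the 6 libraries only the removal of Tfam KO replicate 2 left the deposited call in place (adjusted p = 0.0224).

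Pdgfra is the platelet-derived growth factor receptor that marks fibroblasts and their precursors. It was at 15.4, 9.80 and 18.02 FPKM in the KO libraries, against 8.82, 6.19 and 10.5 FPKM in the controls. The groups overlapped, since Tfam KO replicate 2 lay below Control replicate 3. Limma gave a log2 fold change of 0.68 on the deposited values (SE 0.23, adjusted p = 0.0443) and 0.38 on the rescaled values (SE 0.16, 95% interval 0.02 to 0.74, adjusted p = 0.232). Without Control replicate 2 it was 0.49 (adjusted p = 0.355) and 0.21 (adjusted p = 0.475), and the deposited call again held only without Tfam KO replicate 2 (adjusted p = 0.0157).

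Lum, Ogn and Dcn encode lumican, osteoglycin and decorin, small leucine-rich proteoglycans that bind collagen and shape its fibrils. Lum was at 22.1, 18.01 and 32.6 FPKM in the KO libraries, against 13.9, 8.80 and 16.0 FPKM in the controls. Rescaled, it was at 18.8, 19.5 and 24.6 FPKM in KO hearts, against 16.8, 10.1 and 15.8 FPKM in controls. On neither scale did the groups overlap. Its rescaled mean was 20.96 ± 3.13 FPKM in KO hearts and 14.2 ± 3.58 FPKM in controls (SD, n = 3 each), a ratio of 1.47. The limma log2 fold change was 0.86 on the deposited values (SE 0.23, adjusted p = 0.00654) and 0.55 on the rescaled values (SE 0.18, 95% interval 0.14 to 0.96, adjusted p = 0.131). Without Control replicate 2 it was 0.63 (adjusted p = 0.245) and 0.34 (adjusted p = 0.256), and without Tfam KO replicate 3 the deposited value was 0.63 (adjusted p = 0.115).

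Ogn was at 7.72, 10.1 and 18.3 FPKM in the KO libraries, against 4.61, 5.98 and 7.30 FPKM in the controls. Rescaled, it was at 6.59, 10.97 and 13.8 FPKM in KO hearts, against 5.56, 6.89 and 7.21 FPKM in controls. Tfam KO replicate 1 then lay inside the control range, while the other two KO libraries lay above it. By limma the deposited log2 fold change was 0.84 (SE 0.23, adjusted p = 0.00726) and the rescaled one 0.55 (SE 0.22, 95% interval 0.07 to 1.03, adjusted p = 0.193). Tfam KO replicate 1 decided the rescaled call, since without it the log2 fold change was 0.82 (limma adjusted p = 0.0221). The deposited call was lost without Tfam KO replicate 3 (0.52, adjusted p = 0.26), Control replicate 1 (0.70, adjusted p = 0.209) or Control replicate 2 (0.85, adjusted p = 0.0592). The lowest count of all 10 genes was the 163 reads of Ogn in Control replicate 1, for which the exact 95% Poisson interval, 139 to 190.03, covers counting error only.

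Dcn was at 54.4, 52.9 and 78.2 FPKM in the KO libraries, against 42.9, 39.6 and 40.1 FPKM in the controls. Its groups did not overlap in the deposited values, but Tfam KO replicate 1 (46.4 FPKM rescaled) lay below Control replicate 1 (51.8 FPKM rescaled). The limma log2 fold change was 0.56 on the deposited values (adjusted p = 0.103) and 0.24 on the rescaled values (95% interval -0.07 to 0.56, adjusted p = 0.392). In the deposited values 4 of the 10 genes (Postn, Lum, Ogn and Dcn) had every KO library above every control, against 25.6% of all tested genes, and 0 had every KO library below, against 2.34%. In the rescaled values 2 of the 10 (Postn and Lum) had every KO library above, against 12.5%, and 0 had every KO library below, against 11.6%.

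**Figure D3:**
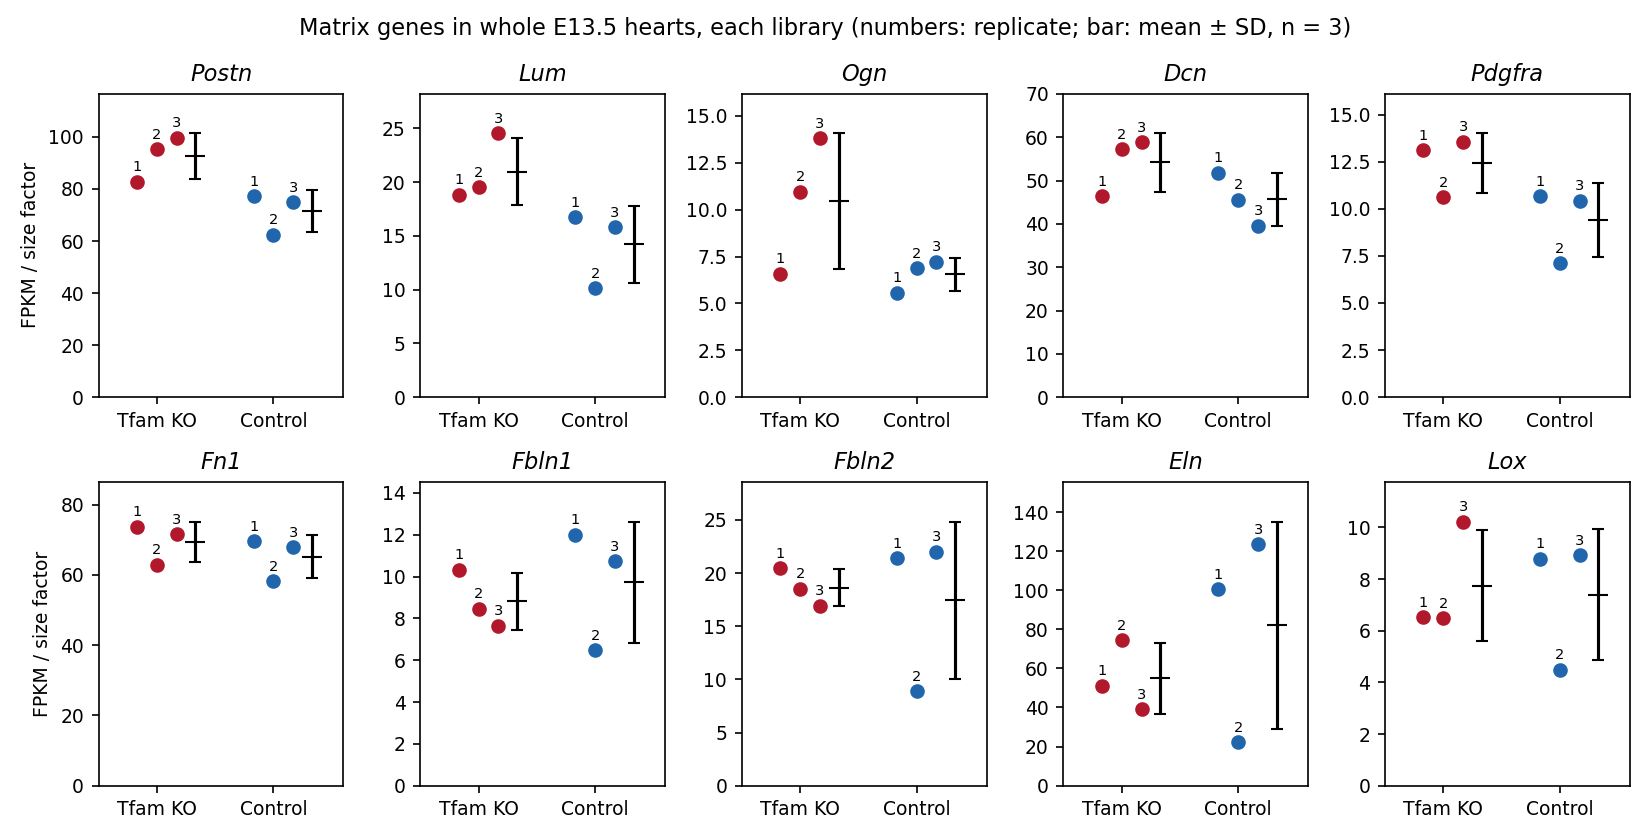
Level of each of the 10 matrix genes in every library, as FPKM divided by the size factor (y axes from 0), with Tfam KO in red and Control in blue. Numbers are replicates and bars are mean ± SD (n = 3 each). Postn and Lum show no overlap between the groups, and the control points of Eln run from 22.3 to 124.

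The promoters of Postn, Ogn and Pdgfra are shown because these genes were called on the deposited values and have an entry in RefSeq's promoter table, where 5 of the 10 genes were found. Each is the 250 bases before an annotated start (GRCm38.p6, 5′ to 3′), with capitals marking the E-box CANNTG, the motif of basic helix-loop-helix factors such as Twist1.
Postn, chr3:54359017-54359266, plus strand: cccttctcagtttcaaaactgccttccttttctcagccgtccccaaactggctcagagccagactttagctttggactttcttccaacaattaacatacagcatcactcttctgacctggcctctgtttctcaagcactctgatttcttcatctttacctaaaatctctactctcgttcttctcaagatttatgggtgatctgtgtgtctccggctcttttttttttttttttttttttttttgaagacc
Ogn, chr13:49607765-49608014, plus strand: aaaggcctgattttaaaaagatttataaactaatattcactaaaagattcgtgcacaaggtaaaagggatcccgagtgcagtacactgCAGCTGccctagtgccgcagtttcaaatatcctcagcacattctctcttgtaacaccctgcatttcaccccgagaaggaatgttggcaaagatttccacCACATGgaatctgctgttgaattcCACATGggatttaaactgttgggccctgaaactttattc
Pdgfra, chr5:75152001-75152250, plus strand: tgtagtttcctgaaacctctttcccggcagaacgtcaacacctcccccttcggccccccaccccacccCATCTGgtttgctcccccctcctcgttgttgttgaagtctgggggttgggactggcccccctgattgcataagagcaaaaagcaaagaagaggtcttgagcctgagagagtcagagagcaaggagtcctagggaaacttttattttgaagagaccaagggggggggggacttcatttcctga
The E-box, which reads the same on both strands, was found 3 times in the Ogn window, starting 162, 63 and 39 bases before the start, and 1 time in that of Pdgfra, starting 182 bases before it. It was in neither the Postn window shown, which is that of the upstream start, nor that of the other annotated Postn start (chr3:54360857-54361106, not shown). Of all 32851 windows of this length 66.2% hold an E-box. The motif TGATGNAA, bound by ATF4 with C/EBP partners and searched on both strands, was in 0 of the 7 windows of these 5 genes and in 3.45% of all windows.

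Some of these genes have relatives beside them in the genome. In the RefSeq annotation of GRCm38.p6 Dcn and Lum are adjacent and are followed by Kera and Epyc, while Ogn is next to Omd, Aspn and Ecm2. Of 12 other small leucine-rich proteoglycan genes 5 were tested, with 1 higher and 0 lower on the deposited values and 0 called on the rescaled values by limma (also 0 before adjustment, and 0 by limma-voom). Aspn, or asporin, was the 1 called and is named for that (log2 fold change 0.74, limma adjusted p = 0.0172, against 0.51 rescaled, adjusted p = 0.31). Its call held without Tfam KO replicate 1 or Control replicate 3 and was lost without any other 1 library, at limma adjusted p between 0.0801 and 0.158. Rescaled, Aspn was at 1.91, 5.87 and 3.41 FPKM in KO hearts, against 2.29, 1.86 and 2.23 FPKM in controls. Like its neighbour Ogn it was lowest among KO hearts in replicate 1, but so were Postn, Lum and Dcn. The other matrix genes were lowest among KO hearts in replicate 2 or 3. Aspn was highest in KO replicate 2 and Ogn in KO replicate 3. Bgn, or biglycan, the most abundant of the list, was at 152, 241 and 176 FPKM rescaled in KO hearts, against 150.1, 127 and 202 FPKM in controls (log2 fold change 0.25, limma adjusted p = 0.571).

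Fn1 encodes fibronectin, the glycoprotein on which many matrix proteins are assembled and which endothelium as well as mesenchyme makes. It was at 86.5, 58.1 and 95.1 FPKM in the KO libraries, against 57.6, 50.5 and 68.7 FPKM in the controls. Rescaled, it was at 73.8, 62.9 and 71.6 FPKM in KO hearts, against 69.6, 58.1 and 68.0 FPKM in controls, and the groups overlapped. The limma log2 fold change was 0.41 on the deposited values (adjusted p = 0.224) and 0.09 on the rescaled values (SE 0.12, 95% interval -0.19 to 0.37, adjusted p = 0.757).

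Among genes of fibronectin receptors and assembly, limma called 3 of 12 tested higher and 0 lower on the deposited values, and 0 on the rescaled values (3 higher and 0 lower before adjustment). The 3, named after their values were seen, were the integrin chains Itgav and Itgb5, which pair as a vitronectin receptor, and the syndecan Sdc4. Itgav was at 9.19, 9.58 and 11.1 FPKM rescaled in KO hearts, against 6.96, 7.31 and 7.47 FPKM in controls, with no overlap (log2 fold change 0.41, limma adjusted p = 0.0832). It was the 1 gene of this list that limma-voom called (adjusted p = 0.0447). Itgb5 and Sdc4 had rescaled log2 fold changes of 0.37 (limma adjusted p = 0.177) and 0.38 (adjusted p = 0.107). Itgb1, the common beta chain and the most abundant of the list, had a rescaled value of 0.04 (adjusted p = 0.911). The 3 deposited calls held without Tfam KO replicate 2 and were lost without each of the other libraries, at limma adjusted p between 0.0712 and 0.299 for Itgav, between 0.0687 and 0.292 for Itgb5 and between 0.0769 and 0.333 for Sdc4.

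Besides Pdgfra, 6 genes of PDGF ligands and receptors were tested. Pdgfrb, the receptor of mural cells and mesenchyme, was the 1 called on the deposited values (log2 fold change 0.68, limma adjusted p = 0.0419), and rescaled it had 0.40 (adjusted p = 0.235), with 0 genes of the list called by limma or limma-voom and 1 higher before adjustment. Named after its values were seen, it kept its deposited call without Tfam KO replicate 2 and lost it without each of the other libraries (limma adjusted p from 0.0869 to 0.307). It was at 8.68, 6.04 and 6.05 FPKM rescaled in KO hearts, against 6.09, 3.97 and 4.95 FPKM in controls. Pdgfa, a ligand of Pdgfra, was at 23.3, 29.7 and 32.8 FPKM rescaled in KO hearts, against 19.6, 28.9 and 20.9 FPKM in controls (limma adjusted p = 0.382). The rescaled sum of the 6 genes was 40.6 to 45.4 FPKM in KO hearts, against 33.7 to 39.2 FPKM in controls, without overlap.

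Fbln1 and Fbln2 encode fibulins, calcium-binding glycoproteins of basement membranes and elastic fibres that valve cushions make in quantity. Fbln1 was at 10.3, 8.46 and 7.66 FPKM rescaled in KO hearts, against 12.004, 6.48 and 10.7 FPKM in controls, so the KO values lay inside the control range. Its rescaled log2 fold change was -0.10 (95% interval -0.54 to 0.34, limma adjusted p = 0.84) and its deposited one 0.19 (adjusted p = 0.556). Leaving out Control replicate 2 gave -0.34 (adjusted p = 0.266) and -0.0651 (adjusted p = 0.898). Fbln2 was at 20.4, 18.5 and 16.9 FPKM rescaled in KO hearts, against 21.4, 8.89 and 22.004 FPKM in controls. Control replicate 2 was far below every other library, and the other two controls were above every KO library. The limma log2 fold change of Fbln2 was 0.19 rescaled (adjusted p = 0.775) and 0.49 deposited (adjusted p = 0.157). Without Control replicate 2 it was -0.21 rescaled (adjusted p = 0.444) and 0.08 deposited (adjusted p = 0.882).

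Eln encodes tropoelastin, the rubber-like protein of arterial walls and semilunar valves, which smooth muscle also makes. It was at 59.9, 68.8 and 51.8 FPKM in the KO libraries, against 83.1, 19.3 and 125 FPKM in the controls. Rescaled, it was at 51.1, 74.6 and 39.0 FPKM in KO hearts, against 100.4, 22.3 and 124 FPKM in controls. Control replicates 1 and 3 lay above all KO libraries and Control replicate 2 lay below them all. The highest control was 5.55 times the lowest, and 99.8% of all tested genes varied less among the controls (SD of rescaled log2 values, 1.32 for Eln, against a median of 0.148). The reads behind this were 905 in Control replicate 2 (exact 95% Poisson interval 847 to 966) and 8537 in Control replicate 3 (8357 to 8720.0).

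The limma log2 fold change of Eln was 0.02 on the deposited values (SE 0.23, adjusted p = 0.956) and -0.30 on the rescaled values (SE 0.52, 95% interval -1.45 to 0.85, adjusted p = 0.807). Without Control replicate 2 it was -0.76 deposited (adjusted p = 0.126) and -1.06 rescaled (SE 0.24, adjusted p = 0.0352), with 2 controls left. The direction also turned without Control replicate 3, where the rescaled value was 0.15 (adjusted p = 0.922), and without Tfam KO replicate 2, where the deposited value was -0.08 (adjusted p = 0.894). The rescaled value passed the threshold only in the fit without Control replicate 2. Eln made up 15.5%, 20.4% and 10.96% of the summed FPKM of the 10 genes in KO replicates 1, 2 and 3, against 26.8%, 9.58% and 32.4% in Control replicates 1, 2 and 3.

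Lox encodes lysyl oxidase, the copper enzyme that crosslinks elastin and collagen. It was at 6.53, 6.49 and 10.2 FPKM rescaled in KO hearts, against 8.78, 4.49 and 8.92 FPKM in controls. The groups overlapped. Limma gave a log2 fold change of 0.08 rescaled (95% interval -0.45 to 0.61, adjusted p = 0.894) and 0.37 deposited (adjusted p = 0.269). With Control replicate 2 left out it was -0.20 rescaled (adjusted p = 0.632) and 0.07 deposited (adjusted p = 0.88).

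Of 19 further elastic fibre and microfibril genes 13 were tested, and limma called 0 on either scale. Before adjustment 3 were higher and 1 lower on the deposited values and 0 were higher and 2 lower on the rescaled values, and limma-voom called 1 lower after adjustment, the lysyl oxidase relative Loxl1. The median log2 fold change of these 13 was 0.34 deposited and 0.02 rescaled. Loxl2, a lysyl oxidase relative and the most abundant of them, had a rescaled value of 0.02 (limma adjusted p = 0.944). Control replicate 2 was the lowest library in 9 of the 13. Among these, Fbln5, a fibulin that links elastin to cells and is named here for its values, was at 8.30, 6.97 and 6.61 FPKM rescaled in KO hearts, against 9.36, 2.20 and 12.03 FPKM in controls, the same order of controls as in Eln.

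The 10 genes differed in abundance per transcript length. In the deposited values, the mean over all 6 libraries was 85.2 FPKM for Postn, 69.4 for Fn1, 67.98 for Eln and 51.3 for Dcn, followed by 18.6 for Lum and 18.5 for Fbln2. Pdgfra (11.5), Fbln1 (9.42), Ogn (9.01) and Lox (7.90) were the lowest. Postn lay above Fn1 and Dcn in every library. Eln was the highest of the 10 in Control replicates 1 and 3 and the fourth in Control replicate 2. Lum and Fbln2, and likewise Fbln1, Ogn and Lox, changed places from library to library, so their order is within the spread. The same holds for Pdgfra against Fbln1 and Ogn, and for Eln against Fn1 and Dcn.

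Of 16 genes of TGF-beta ligands, receptors and responses, limma called 0 on the deposited values (2 higher and 1 lower before adjustment) and 1, which was lower, on the rescaled values. Limma-voom called 3 lower, which were Tgfb1, Tgfbr3 and Smad6 (named after their values were seen). Tgfb1, a ligand known for driving matrix production, was at 6.53, 6.11 and 4.78 FPKM rescaled in KO hearts, against 12.2, 10.2 and 9.43 FPKM in controls, without overlap. The deposited values did not overlap either, at 7.65, 5.64 and 6.34 FPKM in KO hearts, against 10.1, 8.88 and 9.54 FPKM in controls. The limma log2 fold change of Tgfb1 was -0.77 rescaled (SE 0.14, adjusted p = 0.0123) and -0.48 deposited (adjusted p = 0.162). Ctgf, a classical response gene of this pathway and the most abundant of the list, had -0.19 rescaled (adjusted p = 0.561) and 0.13 deposited (adjusted p = 0.709).

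Of 15 tested genes of the valve and cushion matrix, limma called 0 on either scale (4 higher and 0 lower deposited, 0 higher and 1 lower rescaled, before adjustment), and limma-voom called 0. Sparc, a collagen-binding glycoprotein and the most abundant of them, was at 303, 386 and 384 FPKM rescaled in KO hearts, against 425, 355 and 386 FPKM in controls (log2 fold change -0.12, limma adjusted p = 0.717, against 0.20 deposited, adjusted p = 0.514). Of 10 tested matrix proteases and inhibitors, 0 were called on the deposited values (3 higher and 1 lower before adjustment) and 1 was lower on the rescaled values. This was Mmp15, a membrane-type metalloproteinase named after its values were seen, at 17.7, 15.3 and 11.8 FPKM rescaled in KO hearts, against 32.99, 20.5 and 28.3 FPKM in controls (log2 fold change -0.81, limma adjusted p = 0.037, against -0.50 deposited, adjusted p = 0.15). Its rescaled call was lost without Tfam KO replicate 2 (adjusted p = 0.0938) or 3 (0.119) and without Control replicate 1 (0.108) or 3 (0.134). With all 6 libraries limma-voom also called it lower (adjusted p = 0.0072). Mmp14, the most abundant of that list, had -0.02 rescaled (adjusted p = 0.954) and 0.30 deposited (adjusted p = 0.365).

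**Figure D4:**
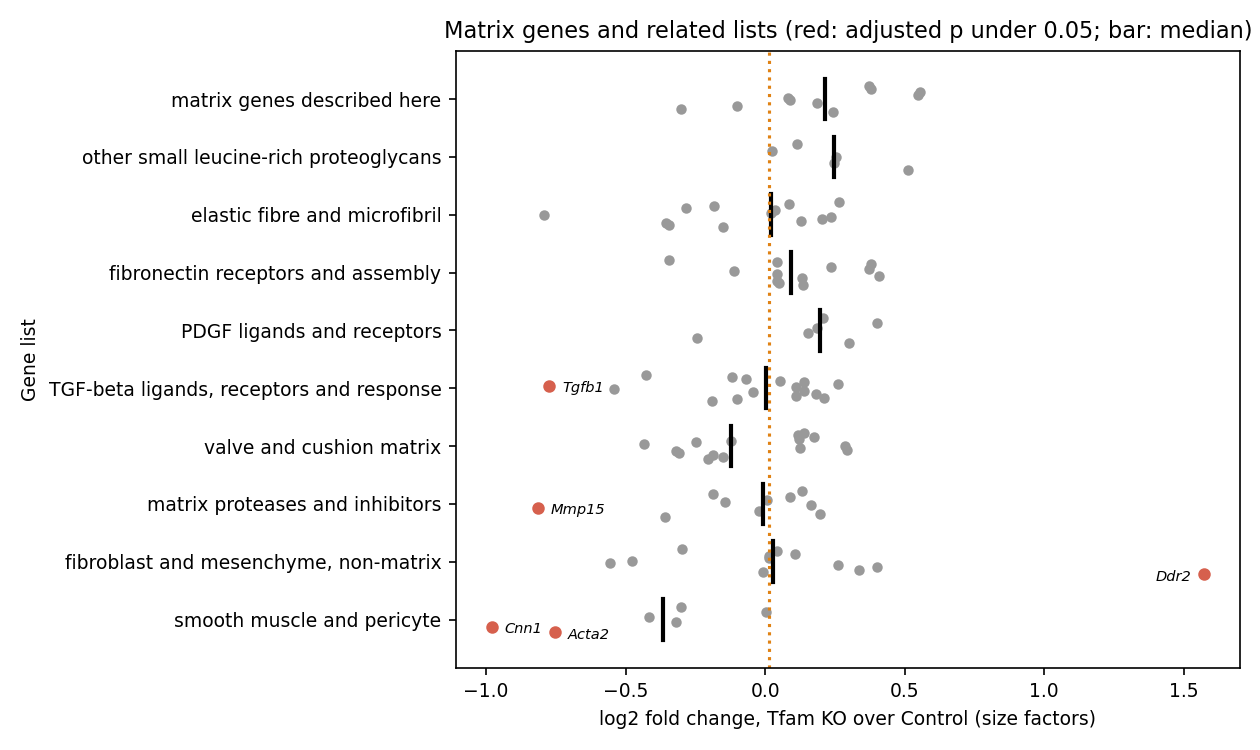
Rescaled log2 fold change, Tfam KO over Control, of each tested gene in the matrix genes described here and in related lists. Points are genes, red points have a limma adjusted p under 0.05, black bars are list medians, and the dotted line is the median of all tested genes (0.01). The 10 matrix genes hold no red point, while Ddr2 stands alone at 1.57 in the fibroblast and mesenchyme list.

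Non-matrix markers of fibroblasts and mesenchyme were examined beside these genes, and 12 of the 14 passed the filter on low values. Finding them in whole hearts cannot show which cells express the 10 genes, since a bulk library mixes all cells. Tcf21 and Sox9 were named for their known roles, with their values seen. Tcf21, a transcription factor of epicardium-derived fibroblasts, was at 8.74, 7.72 and 6.16 FPKM rescaled in KO hearts, against 8.47, 5.07 and 7.48 FPKM in controls. Sox9, a transcription factor of valve mesenchyme, was at 9.89, 9.39 and 12.95 FPKM rescaled in KO hearts, against 13.51, 6.28 and 13.54 FPKM in controls. Twist1, named after its values were seen, was at 6.55, 4.72 and 7.57 FPKM rescaled in KO hearts, against 8.09, 2.57 and 9.46 FPKM in controls. In 9 of the 12 tested markers of this list Control replicate 2 was the lowest library. The rescaled sum of the whole list of 14, most of it Vim, was 471 to 494 FPKM in KO hearts, against 511 to 613 FPKM in controls, without overlap. Vim itself had every KO library below every control rescaled (log2 fold change -0.30, limma adjusted p = 0.249). The median log2 fold change of the 12 tested was 0.32 deposited and 0.03 rescaled. Limma called 2 higher and 0 lower deposited, and 1 higher and 0 lower rescaled. Before adjustment 2 were higher and 2 lower rescaled, and 2 higher and 3 lower by limma-voom.

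Ddr2, a receptor tyrosine kinase that fibrillar collagen activates and a marker of fibroblasts, rose in Tfam KO hearts and was the 1 gene of these 12 called on both scales. It was named after its values were seen. It was at 10.8, 7.97 and 13.9 FPKM in the KO libraries, against 2.48, 1.76 and 2.58 FPKM in the controls, far from overlapping. Rescaled means were 9.44 ± 0.942 FPKM in KO hearts and 2.52 ± 0.487 FPKM in controls (SD, n = 3 each), a ratio of 3.74. By limma the log2 fold change was 1.84 deposited (SE 0.23, adjusted p = 1.23e-13) and 1.57 rescaled (SE 0.14, adjusted p = 0.00014), and the call held on both scales without any 1 of the 6 libraries.

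Markers of other cell types, as rescaled sums, stood beside these results as follows. The 7 smooth muscle and pericyte markers summed to 246 to 294 FPKM in KO hearts, against 413 to 453 FPKM in controls, without overlap. Of 6 tested, limma called 2 lower on the rescaled values and 0 on the deposited ones (1 lower before adjustment). Limma-voom called the same 2 lower (4 lower before adjustment). Both are named after their values were seen. Acta2, smooth muscle actin, was at 195, 249 and 198 FPKM rescaled in KO hearts, against 370.0, 359 and 348 FPKM in controls (log2 fold change -0.75, limma adjusted p = 0.0116, against -0.43 deposited, adjusted p = 0.194). Cnn1, calponin, was at 15.4, 14.7 and 19.1 FPKM rescaled in KO hearts, against 39.0, 24.9 and 37.2 FPKM in controls (log2 fold change -0.98, limma adjusted p = 0.0108, against -0.67 deposited, adjusted p = 0.0519). As deposited, Acta2 was at 228, 230 and 263 FPKM in KO hearts, against 306, 312 and 352 FPKM in controls, without overlap. The deposited groups of Cnn1 overlapped. Without Control replicate 3 both missed the threshold on the rescaled values, at limma adjusted p of 0.0524 for Acta2 and 0.0575 for Cnn1. Embryonic cardiomyocytes express both genes as well. In Control replicate 2, where Eln was lowest, Cnn1 was the lowest of the controls and Acta2 lay between the others. The sum of the 7 markers was also the lowest of the controls there, at 413 FPKM, against 453 and 433 FPKM in Control replicates 1 and 3. The part of smooth muscle content in the Eln values was not tested.

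Endothelial and endocardial markers, 10 in all, summed to 159 to 179 FPKM in KO hearts, against 184 to 198 FPKM in controls, without overlap. The sum of 10 epicardial markers was 47.2 to 57.98 FPKM in KO hearts, against 41.1 to 55.7 FPKM in controls. For 8 macrophage markers it was 11.8 to 14.7 FPKM in KO hearts, against 9.75 to 13.8 FPKM in controls. The epicardial and macrophage sums overlapped between the groups, as did those of the lists that follow. The 11 cardiomyocyte markers summed to 7185 to 13403 FPKM in KO hearts, against 10812 to 14118 FPKM in controls. For 9 erythroid markers the sum was 3332 to 10166 FPKM in KO hearts, against 6209 to 12711 FPKM in controls, with Hba-a1 and Hbb-b2 listed at 0 in all 6 libraries. For 9 neural crest, Schwann cell and neuronal markers it was 3.25 to 4.03 FPKM in KO hearts, against 2.97 to 5.62 FPKM in controls, and none reached the filter. On the rescaled values limma called 1 of 10 tested endothelial and 2 of 11 cardiomyocyte markers lower, and 0 of 9 epicardial, 0 of 7 macrophage and 0 of 5 erythroid markers. On the deposited values it called 1 endothelial, 1 epicardial and 1 macrophage marker higher, 0 of these lower, and 0 cardiomyocyte or erythroid markers in either direction.

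Further lists were meant to mark tissue outside the heart. The 8 genes of cartilage and other mesenchyme summed to 4.31 to 5.87 FPKM in KO hearts, against 5.11 to 11.6 FPKM in controls. They include Acan, which is also in the valve and cushion list, so they do not mark such tissue alone. The cartilage collagen Col2a1, 1 of 2 tested, fell (log2 fold change -0.75 deposited, limma adjusted p = 0.019, and -1.01 rescaled, adjusted p = 0.039). Rescaled, Col2a1 was at 3.15, 1.82 and 2.49 FPKM in KO hearts, against 7.55, 3.64 and 7.37 FPKM in controls. The 8 markers of lung, foregut and liver summed to 0.406 to 2.76 FPKM in KO hearts, against 2.26 to 8.30 FPKM in controls, with Sftpc and Foxa2 listed at 0 in every library. The 1 tested of these, the liver gene Alb, was called lower on the deposited values (log2 fold change -1.04, limma adjusted p = 3.13e-05) and by limma-voom (adjusted p = 0.0336), and rescaled it had -1.14 (limma adjusted p = 0.144). Alb rested on 3, 44 and 1 reads in KO replicates 1, 2 and 3, against 69, 75 and 32 in Control replicates 1, 2 and 3. Its groups overlapped, with Tfam KO replicate 2 (1.56 FPKM deposited) above Control replicate 3 (0.87 FPKM). The deposited p-value uses a variance trend shared by all genes. The Col2a1 call was lost on both scales without Tfam KO replicate 2 (limma adjusted p = 0.132 on each), Control replicate 1 (0.242 deposited, 0.114 rescaled) or Control replicate 3 (0.191 deposited, 0.151 rescaled), and on the rescaled values without Tfam KO replicate 3 (0.104). Col2a1 and Alb are named after their values were seen. The part of these cell types in the matrix results was not tested.

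Ogn, whose rescaled log2 fold change was the largest of the 10, was compared with every tested gene by its profile over the 6 libraries. The 5 nearest profiles were those of Snora81, Ncl, Nop58, Tcea1 and Mphosph10, with root mean square differences of 0.081, 0.12, 0.13, 0.13 and 0.13 on the log2 scale. Snora81 rests on 3 to 20 reads a library. Among the other matrix genes Postn was nearest (0.28), at rank 642 of the tested genes, followed by Dcn (0.32) and Lum (0.34), and Eln was farthest (0.997).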

How the data were processed

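Hearts of 3 Tfam KO and 3 Control pools were each sequenced as 1 library. The processing notes of the submitters list TopHat2 2.0.7, CASAVA 1.8.2 and HTSeq 0.5.3, with mm9 as the build and without role or order. Strand handling, the annotation and how FPKM was computed are not given in the sources used here. Values deposited by the authors were log2(FPKM + 1). Base 2 was read from the values, since ratios of low genes between libraries fell on common steps in base 2 (at least 10.04% of them) and not as natural logs (at most 0.926%). These steps also gave the library totals relative to each other. Their absolute level was inferred from GENCODE transcript lengths of genes whose transcripts share 1 length, with 324 to 414 genes giving the total of each library. With these totals all 17876 genes above 0 came out as whole reads in all 6 libraries, within 1e-05 of a read for low counts, up to a whole factor per gene that all libraries share. The sources do not say that the pools came from separate litters, so p-values measure no more than the spread between these pools. In the deposited fit that spread is shared over genes.

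Tfam KO was compared with Control in limma 3.58.1 under R 4.3.3, using the deposited log2 values of 10807 genes whose mean reached 1 FPKM, a variance trend, two-sided tests and Benjamini-Hochberg adjustment over all tested genes (threshold 0.05). Fold changes on this scale understate those of low genes. The prior degrees of freedom of this deposited fit were infinite, so that all genes share 1 variance trend. Its SEs and p-values rest on that trend and not on the spread of each gene between pools. Eln, for example, had an SE of 0.23 as deposited and 0.52 rescaled. Once libraries were divided by size factors, the prior degrees of freedom were 6.2. Other scalings, pseudocounts and filters, limma-voom on recovered reads, and fits without each library were run beside it. Genes named were the 10 matrix genes, Tfam, up to 4 genes of each related list called on both scales or else its most abundant gene, and the 5 nearest profiles, with a few further genes chosen after their values were seen (calls on 1 scale, markers of the cell types, and Fbln5). The members and lists were chosen with earlier results of these data known.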

Additional observations from a re-analysis of the deposited data

How the results depend on the processing

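Calls of matrix genes depended on the scale: the 4 higher as deposited became 0 with size factors, with equal FPKM sums without Rn45s, with limma-voom, with size factors and a pseudocount of 0.1, with no filter, and with the replicate block and size factors. Leaving out 1 library gave between 0 and 6 higher and between 0 and 1 lower matrix genes. Over all tested genes the deposited values gave 671 higher and 125 lower, and the counts were 224 and 270 with size factors, 258 and 253 with equal FPKM sums, 294 and 441 with limma-voom, 217 and 250 with size factors and a pseudocount of 0.1, and 145 and 22 with no filter. With a mean of at least 5 FPKM 74 were lower. With 1 library left out, deposited or with size factors, 138 to 2273 were higher and 52 to 338 lower. The replicate numbers are shared by the groups, but same-numbered libraries deviated together with correlations of 0.36, 0.07 and 0.16 (size factors), not all above 0.1, and Tfam KO replicate 3 correlated best with Control replicate 2 (0.25). The replicate block gave 2083 higher and 241 lower genes as deposited and 287 and 394 with size factors, and 6 matrix genes higher as deposited.

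Signs turned with size factors, limma-voom, size factors with a pseudocount of 0.1, and the replicate block with size factors for Fbln1 (-0.10, -0.13, -0.11 and -0.10), Eln (-0.30, -0.31, -0.30 and -0.30), Ctgf (-0.19, -0.20, -0.20 and -0.19), Sparc (-0.12, -0.12, -0.12 and -0.12), Mmp14 (-0.0204, -0.0205, -0.0209 and -0.0204) and Vim (-0.30, -0.30, -0.30 and -0.30). With equal FPKM sums the values were -0.0607 for Fbln1, -0.26 for Eln, -0.15 for Ctgf, -0.081 for Sparc, -0.26 for Vim. Leaving out 1 library gave log2 fold changes of -0.36 to 0.26 for Ctgf, -1.06 to 0.55 for Eln, -0.34 to 0.35 for Fbln1, -0.21 to 0.78 for Fbln2, -0.49 to 0.87 for Fbln5, -0.0302 to 0.47 for Itgb1, -0.20 to 0.60 for Lox, -0.0352 to 0.50 for Loxl2, -0.11 to 0.43 for Mmp14, -0.32 to 0.56 for Sox9, -0.18 to 0.29 for Sparc, -0.0783 to 0.52 for Tcf21, -0.44 to 0.68 for Twist1 and -0.36 to 0.16 for Vim. The other matrix genes and the other named genes kept their sign under these alternatives. The cause was not tested. Reads per matrix gene and library ran from 163 to 13211.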
